A study of Mus musculus with 8 samples.

Results

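The MCM genes examined here are Mcm2 to Mcm10, which encode the minichromosome maintenance proteins of the mouse. They were found in a table of 52636 genes by matching Ensembl identifiers to gene symbols, and all 9 symbols had a row. Reads were present in all 8 libraries for 8 of them, which were fitted together with the rest of the 14598 genes of that kind, whereas Mcm10 had a count of 0 in some libraries and is described from its counts. Mcm6 was chosen by its CPM difference between the genotypes in these same libraries, and the other MCM genes were added because of Mcm6. The genotype values below are therefore given as a description. Where p-values or calls of the MCM genes between genotypes appear, they hold that choice and are no test of it. The question for the other MCM genes was whether they follow Mcm6.

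MCM2 to MCM7 form a ring of 6 related subunits, the core of the replicative DNA helicase. In G1 the origin recognition complex, CDC6 and CDT1 load this ring on DNA in an inactive form, a step known as licensing, and kinases together with CDC45 and the GINS complex later turn it into the moving helicase. MCM8 and MCM9 form a separate helicase used in homologous recombination, and MCM10, which is not a ring subunit, takes part in helicase activation. Transcription of several MCM genes is under E2F control and is high in dividing cells, and most bone marrow stromal cells of adult mice divide rarely.

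The data are polyA RNA sequencing of bone marrow mesenchymal stem and progenitor cells (MSPCs), with 1 library from each of 8 C57BL/6 mice that the labels give as 6 weeks old, whereas the methods give an older range for all mice of the study. Sorting kept PDGFRα+ cells with GFP made from the Kitl (SCF) locus and removed cells with CD45, Ter119, CD31 or CD144. The 4 CTR mice were Flk2-cre+ Cxcr4fl/+ and the 4 cKO mice were Flk2-cre+ Cxcr4fl/fl, so that controls also carry the Cre transgene and a floxed Cxcr4 allele. Sorting on GFP implies a Kitl-GFP allele in both groups, which these genotypes leave out. The study reports that this allele brought membrane-bound SCF and hematopoietic stem cell numbers of cKO mice back to control levels. Flk2-cre deletes in hematopoietic progenitors and their progeny, so that the sorted MSPCs are not the cells in which Cxcr4 was targeted, and Cxcr4 counts (4 to 19 in CTR and 0 to 12 in cKO) do not check the labels. Sample titles carry numbers of unstated meaning that fall into 2 ranges, 26 to 32 and 67 to 86, with 2 libraries of each genotype in each range. Total counts ranged from 31047344 to 38216877 per library. The 7 MSPC markers, among them Lepr and Cxcl12, summed to between 48767 and 60542 CPM (counts scaled to library size by TMM) in CTR and between 49727 and 61731 in cKO, against 15.5 to 52.7 and 29.3 to 56.1 for leukocyte markers, among which the T cell gene Cd3e was at 0 in all libraries. Erythroid markers summed to between 67.1 and 164 CPM in CTR and between 135 and 236 in cKO. Igha, an immunoglobulin gene chosen after its values were seen, had 2945 counts in CTR replicate 3 and 0 to 38 in the others.

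The sequences just upstream of 3 of the genes are shown because E2F proteins are known regulators of MCM genes. Mcm6 is the member that stood apart between genotypes, Mcm5 is a ring subunit with matches to the same letters, and Mcm2 is a ring subunit with none. Each line gives the 250 bases before the RefSeq transcription start on GRCm38.p6, 5′ to 3′ on the gene's strand, and capitals mark matches to TTTCCCGC, TTTCGCGC, TTTGCCGC or TTTGGCGC on either strand. Mcm6 lies on the minus strand (chr1:128359706-128359955), Mcm5 on the plus strand (chr8:75109259-75109508) and Mcm2 on the minus strand (chr6:88898781-88899030).
Mcm6: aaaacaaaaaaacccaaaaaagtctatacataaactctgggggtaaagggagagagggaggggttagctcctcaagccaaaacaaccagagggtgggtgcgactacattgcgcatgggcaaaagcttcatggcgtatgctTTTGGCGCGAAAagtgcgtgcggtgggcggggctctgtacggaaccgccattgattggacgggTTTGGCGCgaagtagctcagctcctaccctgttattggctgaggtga
Mcm5: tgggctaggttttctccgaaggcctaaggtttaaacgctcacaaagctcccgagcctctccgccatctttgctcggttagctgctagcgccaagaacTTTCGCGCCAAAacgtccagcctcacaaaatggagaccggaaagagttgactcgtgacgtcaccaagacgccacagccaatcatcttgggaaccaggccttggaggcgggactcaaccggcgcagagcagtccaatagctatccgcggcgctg
Mcm2: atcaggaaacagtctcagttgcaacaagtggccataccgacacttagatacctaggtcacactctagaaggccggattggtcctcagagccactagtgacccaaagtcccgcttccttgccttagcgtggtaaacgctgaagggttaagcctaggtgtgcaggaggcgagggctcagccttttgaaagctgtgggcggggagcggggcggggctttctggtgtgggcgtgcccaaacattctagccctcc
Mcm6 held 3 such matches, a pair that overlaps on opposite strands and starts 110 and 106 bases before the transcription start, and 1 that starts 47 bases before it. Mcm5 held an overlapping pair, 153 and 149 bases before the start. Counted in windows of 300 bases that include the first 50 bases after the start, 5 of the 9 RefSeq entries for MCM genes had a match, from 5 genes (Mcm3, Mcm5, Mcm6, Mcm7 and Mcm8), beside 2.26% of all 32851 promoter windows. No promoter entry was given for Mcm4. All 9 entries contained CCAAT on either strand, as did 37.4% of all windows. Letter matches describe the window and do not show that a factor binds there.

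Mcm6 had fewer reads in cKO than in CTR MSPCs, while the other 5 ring subunits stayed within 0.17 of no difference on the log2 scale. Mcm6 (ENSMUSG00000026355, chr1:128331590-128359664 in GRCm38) was counted at 29.2, 37.7, 16.9 and 38.4 CPM in CTR replicates 1 to 4, and at 16.3, 16.7, 12.5 and 11.3 CPM in cKO replicates 1 to 4. The groups did not overlap in CPM scaled by TMM, but CTR replicate 3 lay next to the highest cKO libraries. The remaining CTR libraries lay well above them. This separation rests on the scaling, with TMM factors of 0.992 in CTR replicate 3 and 1.006 in cKO replicate 2. Scaled by total counts alone, cKO replicate 2 lay slightly above CTR replicate 3. Mean levels were 30.5 ± 9.997 CPM (CTR) and 14.2 ± 2.72 CPM (cKO; SD, n = 4 libraries each), and the log2 fold change of cKO relative to CTR was -1.10 (SE 0.26). In raw counts Mcm6 had between 546 and 1439 reads per CTR library and between 408 and 589 per cKO library, so that counting error is small beside the spread between mice. In bulk samples, fewer cells of a type and less RNA per cell cannot be told apart. CTR replicate 3, the library with the Igha counts, had the lowest Mcm6 level of its group, and without it the log2 fold change was -1.31. The part of Igha or of the erythroid markers in the Mcm6 difference was not tested.

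**Figure D1:**
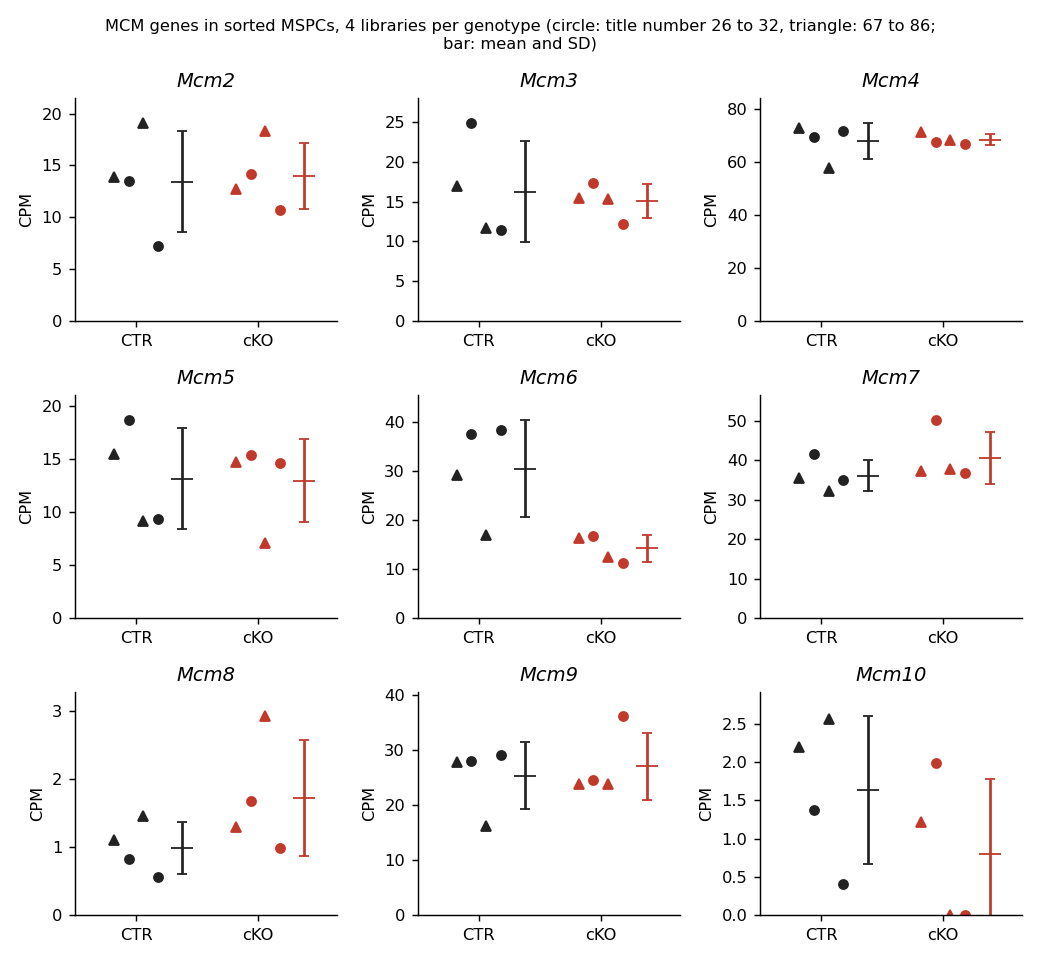
CPM of the 9 MCM genes in each library (y axis, from 0) by genotype, CTR in black and cKO in red, with circles for title numbers 26 to 32 and triangles for 67 to 86, and bars for the mean and SD of 4 libraries (the lower end of the Mcm10 bar in cKO is below 0 and not drawn). Mcm6 is the gene whose genotypes do not overlap among the 8 tested, and Mcm10 has 2 cKO libraries at 0.

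The range of genotype differences across the transcriptome gives the scale of this value. The median log2 fold change of the 14598 genes was -0.0013 and the median size of the difference was 0.14. A log2 fold change at or below that of Mcm6 was found for 125 genes (0.856%), and for 14 when only the 9398 genes averaging 10 CPM or more were counted. Genotypes did not overlap for 2.62% of all genes tested and for 1 of the 8 MCM genes, which is Mcm6 itself. An unadjusted p under 0.05 in edgeR was found for 4.43% of all genes and for the same 1 MCM gene. After adjustment edgeR called 0 of the 14598 genes (0%), while DESeq2 called 23 (0.158%) by the Wald test and 47 (0.322%) by the likelihood ratio test with the title number range as a term, each list including Mcm6 and no other MCM gene. These counts describe a gene that was picked for this difference, so that its p-values and calls are no support for it.

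Mcm4, the most abundant of the family, was the most even of the ring subunits. Its CPM were 72.9, 69.4, 58.0 and 71.9 in CTR and 71.4, 67.6, 68.3 and 66.9 in cKO, so that all cKO libraries lay within the CTR range. The log2 fold change was 0.01 (SE 0.10). Mcm7, whose product together with those of Mcm4 and Mcm6 can be isolated as a subcomplex with helicase activity, was at 35.5, 41.5, 32.1 and 35.0 CPM in CTR and at 37.3, 50.3, 37.8 and 36.8 CPM in cKO. Its log2 fold change of 0.17 (SE 0.14) was the highest of the ring subunits, and the groups overlapped through CTR replicate 2. Mcm7 shares 557 of its 4426 exonic bases with Ap4m1, Cops6, Mir25 and Mir93 in the annotation. How the authors counted strand was not stated, so that it is not known to which gene, if any, reads of the shared bases were counted.

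Mcm2, Mcm3 and Mcm5 varied more from mouse to mouse than between genotypes. Mcm2, whose product also binds histones, was at 13.9, 13.5, 19.1 and 7.29 CPM in CTR and at 12.8, 14.1, 18.3 and 10.7 CPM in cKO, with a log2 fold change of 0.06 (SE 0.29). Mcm3, whose product contacts the origin recognition complex and CDC6 during loading, was at 17.0, 24.9, 11.7 and 11.4 CPM in CTR and at 15.4, 17.3, 15.4 and 12.2 CPM in cKO (log2 fold change -0.11, SE 0.27). Mcm5, whose product forms with MCM2 the gate through which DNA enters the ring, was at 15.4, 18.7, 9.14 and 9.31 CPM in CTR and at 14.7, 15.3, 7.12 and 14.6 CPM in cKO (log2 fold change -0.02, SE 0.32). All 3 overlapped between genotypes, and each changed sign when 1 library was left out. Mcm2 then ranged from -0.15 without CTR replicate 4 to 0.27 without CTR replicate 3, Mcm3 from -0.25 without CTR replicate 4 to 0.17 without CTR replicate 2, and Mcm5 from -0.17 without CTR replicate 3 to 0.19 without CTR replicate 2. Differences between genotypes were smaller than the standard error for all 3 genes.

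The relatives outside the ring did not share a direction with Mcm6 among those tested. Mcm8 was at 1.10, 0.83, 1.46 and 0.56 CPM in CTR and at 1.28, 1.68, 2.91 and 0.99 CPM in cKO, a log2 fold change of 0.80 (SE 0.44) with overlapping groups, and without cKO replicate 3 the value was 0.42. Mcm9 was at 27.8, 28.1, 16.2 and 29.2 CPM in CTR and at 23.8, 24.6, 23.8 and 36.2 CPM in cKO. Its log2 fold change was 0.10 (SE 0.22), and it was below 0 without CTR replicate 3 or without cKO replicate 4. The annotation places 1748 of the exonic bases of Mcm9 within exons of Asf1a on the opposite strand, and Asf1a itself averaged 30.2 ± 3.02 CPM (CTR) and 31.6 ± 4.99 CPM (cKO).

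Mcm10 was detected in all CTR libraries but in only part of the cKO libraries. Its counts were 68, 45, 83 and 15 in CTR and 40, 70, 0 and 0 in cKO, or 2.20, 1.38, 2.57 and 0.40 CPM and 1.22, 1.99, 0 and 0 CPM. A count of 0 allows up to 3 counts, 0.0920 CPM in cKO replicate 3 and 0.0778 CPM in cKO replicate 4, counting error only. Both libraries at 0 are cKO and the other 2 cKO libraries lie within the CTR range. Fitted without the filter on counts, its log2 fold change was -1.02 with an SE of 1.38, a value that depends on how the counts of 0 are treated and is no bound.

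**Figure D2:**
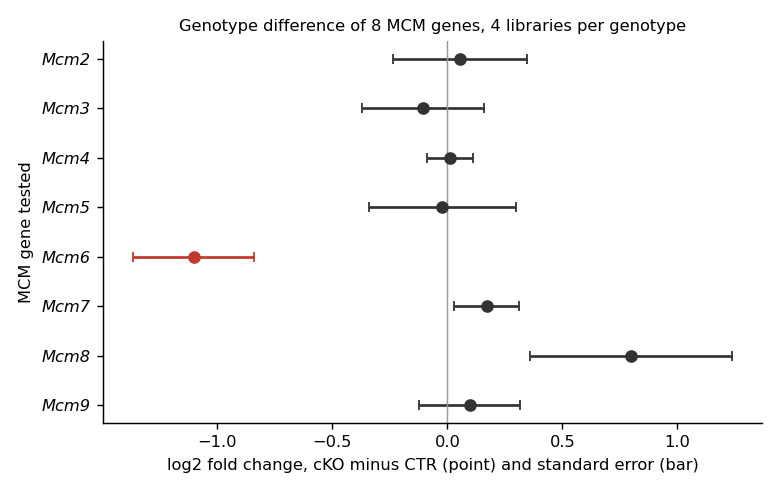
Log2 fold change of cKO relative to CTR for the 8 MCM genes tested (x axis; point, with the standard error of the edgeR fit as a bar). Mcm6 is at -1.10 and the other ring subunits, Mcm2 to Mcm5 and Mcm7, lie between -0.11 and 0.17.

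Of the 8 MCM genes tested, 3 were lower and 5 higher in cKO, beside 50.2% of all genes lower. The 5 ring subunits other than Mcm6 had a median log2 fold change of 0.010, near the median of all genes. Within title numbers 26 to 32, the difference between genotypes of Mcm6 was -1.46 (log2, difference of means), and within 67 to 86 it was -0.64. Mcm6 had to be lower in cKO in both ranges, because each of its CTR values lay above each of its cKO values. Mcm7 (0.17 and 0.15), Mcm8 (0.86 and 0.59) and Mcm9 (0.06 and 0.16) were higher in cKO in both, whereas Mcm2 (0.31 and -0.09), Mcm3 (-0.21 and 0.12), Mcm4 (-0.07 and 0.10) and Mcm5 (0.18 and -0.22) differed in sign. The interaction of genotype and title number range for Mcm6 was 0.76 (SE 0.45, edgeR, unadjusted p = 0.130, Benjamini-Hochberg adjusted p = 0.9998). It ran from 0.42 without CTR replicate 3 to 1.21 without CTR replicate 1. With 2 libraries of each genotype per range, this fit does not show that the ranges are alike. It also holds the values by which Mcm6 was picked. Over all genes, the interaction was called for 0 of 14598 (0%), with 3.44% at an unadjusted p under 0.05.

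Because the ring holds 1 copy of each of 6 subunits, the makeup of their transcripts was computed per library from CPM per kilobase of exon. Comparing genes by this level depends on the length used. For Mcm2 all exons hold 6956 bases and the longest transcript 3494, for Mcm7 4426 and 2962, and for Mcm4 3589 by both. Shares with the longest transcript were not computed. Mcm6 made up 13.9%, 16.1%, 10.3% and 19.3% of the summed level of the 6 genes in CTR replicates 1 to 4, and 8.44%, 8.11%, 6.92% and 6.40% in cKO replicates 1 to 4. The lowest CTR share was above the highest cKO share, with means of 14.9 ± 3.79% and 7.47 ± 0.965% (SD, n = 4 each). Mcm4 made up 44.2 ± 3.78% in CTR and 47.2 ± 3.17% in cKO, and Mcm7 made up 18.9 ± 1.18% and 22.5 ± 2.26%. Mcm3 (9.83% and 9.88%), Mcm5 (7.48% and 7.95%) and Mcm2 (4.65% and 4.97%) had means close to each other in CTR and cKO. The summed level of the 5 subunits without Mcm6 was 36.7 ± 4.60 CPM per kb in CTR and 37.5 ± 2.35 CPM per kb in cKO, so that the lower share of Mcm6 came with a like sum of the others. Relative to the mean of the other 5, Mcm6 was at log2 ratios of -0.31, -0.06, -0.80 and 0.26 in CTR and at -1.12, -1.18, -1.43 and -1.55 in cKO. These shares hold the difference by which Mcm6 was picked and carry no test.

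**Figure D3:**
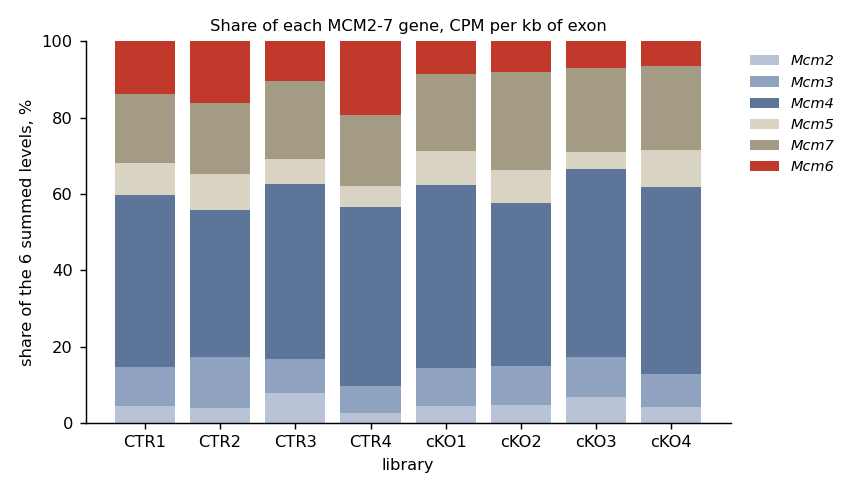
Share of each ring subunit in the summed level of the 6 genes (y axis, percent of CPM per kb of exon) in each library (x axis), with Mcm6 in red at the top. Mcm6 takes between 10.3% and 19.3% in CTR and between 6.40% and 8.44% in cKO.

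The order of the MCM levels per length was tested between neighbours over the 8 libraries. The levels of Mcm6 hold the low cKO values by which it was picked, so that the pairs with Mcm6 are not free of that choice. Neighbours were set by the same mean levels that the tests compare. Mcm4 was the highest at 19.0 ± 1.31 CPM per kb (SD, n = 8), followed by Mcm7 at 8.65 ± 1.25, Mcm6 at 4.80 ± 2.37, Mcm3 at 4.18 ± 1.17, Mcm5 at 3.27 ± 1.00, Mcm9 at 2.88 ± 0.627, Mcm2 at 1.97 ± 0.547 and Mcm8 at 0.363 ± 0.195. Mcm10, with 2 libraries at 0, was lower still at 0.213 ± 0.125 in CTR and 0.104 ± 0.127 in cKO. Its place below Mcm8 holds for all exons, with 7692 bases for Mcm10 and 3718 for Mcm8. The longest transcripts hold 4867 and 3397 bases, and Mcm10 was not ranked by that length. Neighbours were compared by exact two-sided sign-flip permutation tests of log2 levels, adjusted over 7 pairs. Mcm4 exceeded Mcm7 in 8 of 8 libraries, by 1.14 on the log2 scale (exact permutation p = 0.0078, the smallest these libraries allow, adjusted p = 0.0273). Mcm7 exceeded Mcm6 in 7 of 8 libraries (0.99, exact permutation test, adjusted p = 0.0365), Mcm3 exceeded Mcm5 in 7 of 8 (0.38, adjusted p = 0.0410) and Mcm2 exceeded Mcm8 in 8 of 8 (2.48, adjusted p = 0.0273). The other neighbours did not differ beyond their spread in the exact permutation test, at adjusted p = 0.742 for Mcm6 and Mcm3, 0.447 for Mcm5 and Mcm9 and 0.109 for Mcm9 and Mcm2. With the length of the longest transcript in place of all exons, Mcm9 moved to the third place and Mcm2 above Mcm5, the difference of Mcm3 and Mcm5 no longer passed, and the log2 difference of Mcm5 over Mcm9 turned to -0.51 and passed (exact permutation test, adjusted p = 0.0137). By that length Mcm4 exceeded Mcm7 by 0.57, Mcm7 exceeded Mcm6 by 1.47 and Mcm2 exceeded Mcm8 by 3.34. With all exons, the 4 calls became 0 for 6 of the 8 libraries left out, where 7 libraries raise the smallest possible p to 0.0156. The differences by all exons then stayed at 1.12 to 1.20 for Mcm4 over Mcm7 and at 2.40 to 2.59 for Mcm2 over Mcm8. Ranked within a genotype, Mcm6 was the third of the family in CTR at 6.55 ± 2.14 CPM per kb and the fifth in cKO at 3.05 ± 0.583, below Mcm3 and Mcm5, while the relative order of the other genes was the same in both.

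Whether the other MCM genes vary together with Mcm6 among mice of 1 genotype is a separate question, because deviations from the genotype means do not hold the genotype difference. Over 8 libraries, Pearson's r with Mcm6 was 0.83 for Mcm4, 0.61 for Mcm7, 0.51 for Mcm3, 0.50 for Mcm9, 0.43 for Mcm5, -0.50 for Mcm8 and -0.58 for Mcm2. None of the 7 relations passed the exact permutation test within genotype, with p between 0.101 and 0.403 and adjusted p = 0.403 for each. Spearman's rho ranged from -0.55 for Mcm2 to 0.74 for Mcm7 (exact permutation p = 0.0503 for Mcm7, adjusted p = 0.328). The value for Mcm4 rested on CTR replicate 3, since r was 0.18 without it, 0.84 without cKO replicate 4 and -0.14 without both, the 2 libraries farthest from the median of Mcm6. For Mcm9, r was -0.55 without CTR replicate 3 and 0.92 without cKO replicate 4. Without CTR replicate 4, r of Mcm3 was 0.94 and passed the exact permutation test (adjusted p = 0.0486), the single relation to do so when any 1 library was left out. With the title number range also removed, r was 0.86 for Mcm4, 0.47 for Mcm7 and -0.41 for Mcm2, and the 4 libraries of a range are too few for a value within it. Across all 15 pairs of ring subunits the median r was 0.36 and 11 were above 0. After Mcm4 with Mcm6, the highest were Mcm3 with Mcm7 (0.70) and Mcm3 with Mcm5 (0.61), and Mcm2 was below 0 with Mcm4 (-0.58), Mcm5 and Mcm7. The same 8 libraries enter every pair.

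**Figure D4:**
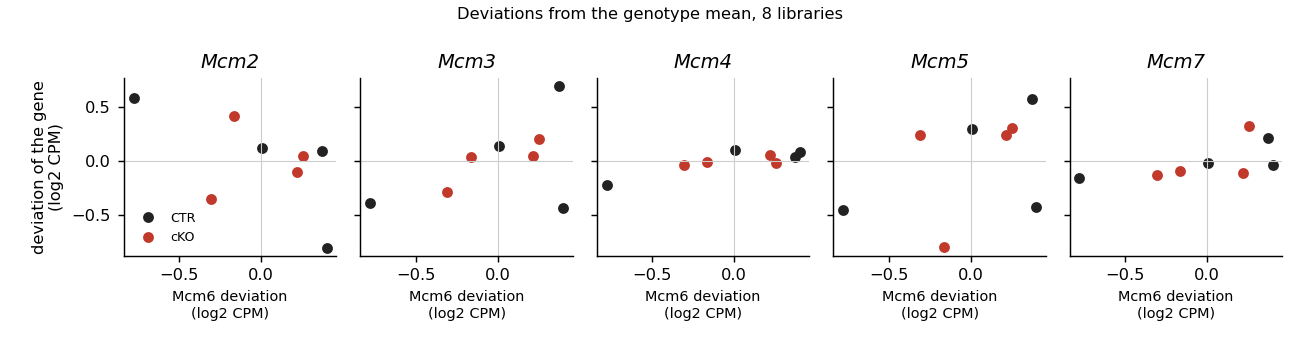
Deviation of log2 CPM from the genotype mean for Mcm6 (x axis) and each other ring subunit (y axis) in 8 libraries, CTR in black and cKO in red. The Mcm4 points span a narrow range on the y axis, and the library farthest to the left in each panel is CTR replicate 3.

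A ranking of all genes by r with Mcm6 placed Mcm4 at 274 (1.87% of genes had a higher r) and Mcm7 at 1485 (10.2%). Mcm3 (15.8%), Mcm9 (16.1%) and Mcm5 (20.5%) came next, and Mcm8 (85.8%) and Mcm2 (90.1%) were far down. The median r of all other genes was -0.0052. No MCM gene was among the 5 genes with the highest r. The highest were Gm42899 (0.98), Plod2, a collagen lysyl hydroxylase (0.98), Slc18a2, a vesicular monoamine transporter (0.97), Rhbdd3, a rhomboid domain protein (0.97), and Tnks, a poly-ADP-ribose polymerase (0.97). Their log2 fold changes between genotypes lay between -0.04 and 0.01. These values are the highest of 14598 over 8 shared libraries.

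In the contrast of title numbers 67 to 86 against 26 to 32, which the choice of genes did not use, no MCM gene passed the test. With genotype as a term, edgeR called 2 of 14598 genes (0.0137%), Cldn1 and Srgn, named after their values were seen, and 0 of the 8 MCM genes, with 11.6% of all genes and 0 MCM genes at an unadjusted p under 0.05. DESeq2's likelihood ratio test called 342 genes (2.34%) and 0 MCM genes. The log2 fold changes of the MCM genes ran from -0.37 (Mcm9) to 0.76 (Mcm8), with adjusted p from 0.476 to 0.946 in edgeR. Mcm2 was at 16.0 ± 3.15 CPM in 67 to 86 and 11.4 ± 3.13 CPM in 26 to 32 (SD, 4 libraries each; log2 fold change 0.49, SE 0.26), and Mcm6 differed by -0.34 (SE 0.25). Mcm2 and Mcm8 were on the higher side and the other 6 on the lower, and the ranges overlapped for all 8, beside 6.87% of all genes without overlap. Standard errors reached 0.38 (Mcm8), and these values do not show that the MCM genes are equal in both ranges.

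The other genes of DNA replication were taken from lists of textbook members, 65 genes in 4 lists, of which 61 were tested. None passed the test between genotypes (0 of 61 by adjusted p, and 0 at an unadjusted p under 0.05, in edgeR, beside 0% and 4.43% of all genes), with 35 lower and 26 higher in cKO and a median log2 fold change of -0.04. DESeq2's Wald and likelihood ratio tests also called 0 of them. The libraries of the genotypes did not overlap for 1 of the 61, Rfc2, a clamp loader subunit named after its values were seen (CTR 27.2 ± 1.64 CPM, cKO 23.2 ± 1.03 CPM), beside 2.62% of all genes. The log2 fold change of Mcm6 lay below that of every gene tested in these lists. Because Mcm6 was picked for its difference, this order is no support that it stands apart from them.

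Among the 12 origin licensing genes, which include the origin recognition complex, 8 were lower and 4 higher in cKO (median -0.08). They ranged from Dbf4, the activator of the CDC7 kinase that phosphorylates the MCM ring, at -0.62 (SE 0.44) to Orc6 at 0.38 (SE 0.27), and the most abundant was Mcmbp, an MCM binding protein, at -0.13 (SE 0.11). In the helicase activation list 12 of 14 genes were tested, with 4 lower and 8 higher (median 0.15). The lowest was Topbp1 at -0.31 (SE 0.20), the highest was Ticrr, a factor needed to recruit CDC45, at 1.10 (SE 0.98) from a mean of 0.534 CPM in CTR, and the most abundant was Tipin, a fork protection factor, at -0.07 (SE 0.15). Of the 23 fork synthesis genes 13 were lower and 10 higher (median -0.0082). Pole, the catalytic subunit of the leading strand polymerase, was the lowest at -0.96 (SE 0.51), with overlapping groups (CTR 4.82 ± 0.886 CPM, cKO 2.47 ± 1.61 CPM). DNA ligase Lig1 was the highest at 0.48 (SE 0.24), and the clamp loader Rfc1, the most abundant, was at -0.0031 (SE 0.11).

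**Figure D5:**
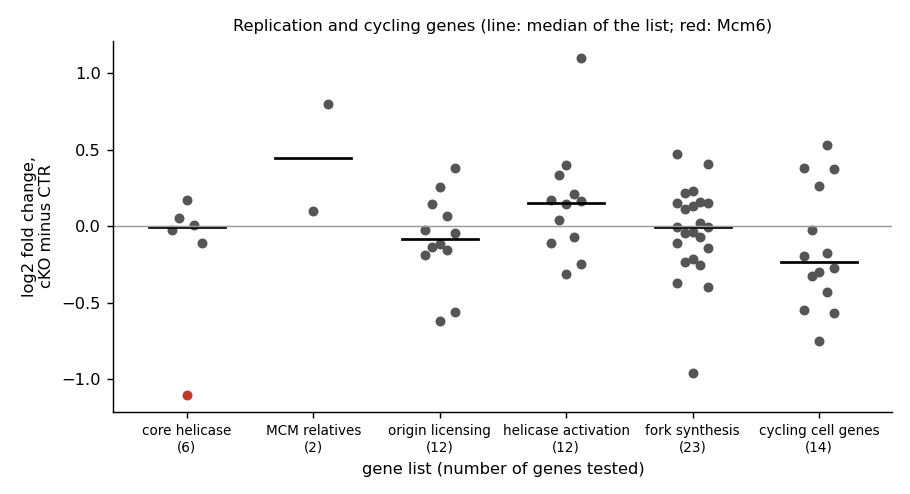
Log2 fold change of cKO relative to CTR (y axis) for every tested gene of 6 lists (x axis, with the number tested), with a line at each list's median and Mcm6 in red. Mcm6 at -1.10 is the lowest point, and the list medians lie between -0.23 and 0.45.

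Genes of cycling cells, which mark S phase and mitosis, had 0 calls in edgeR, beside 0% of all genes tested. Of 16 listed, 14 were tested and Bub1 and E2f1 were not. Of those tested, 10 were lower and 4 higher in cKO, and the median was -0.23. Top2a, the topoisomerase of dividing cells, was the lowest at -0.75 (SE 0.45), Ccnb1, the mitotic cyclin, was the highest at 0.53 (SE 0.52), and Tyms, which makes thymidylate, was the most abundant at -0.30 (SE 0.21). The levels of Top2a overlapped, at 3.55 to 10.8 CPM in CTR and 2.36 to 6.09 CPM in cKO. Their median level was 4.98 CPM, against 19.0 CPM for the 6 ring subunits, on a scale not corrected for length. The part of a difference in cycling cells in the Mcm6 value was not tested.

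Mcm6 lies on the same chromosome as the floxed gene. Its annotated body is 229 kb from that of Cxcr4, and by design the groups differ in the number of floxed copies there, so that a difference tied to this stretch of chromosome 1 and one tied to the loss of CXCR4 in blood cells cannot be told apart for Mcm6. The other tested genes within 500 kb were Gm6170 (66.7 kb, log2 fold change -0.23, SE 0.50), Dars, the aspartyl tRNA synthetase gene that lies between Mcm6 and Cxcr4 (171 kb, -0.15, SE 0.095), Ubxn4 (309 kb, 0.01, SE 0.092), R3hdm1 (350.5 kb, 0.31, SE 0.15) and Gm37407 (424 kb, -0.54, SE 0.67). None of these was called in edgeR, beside 0 of all 14598 genes tested, so that Mcm6 was not called there either. Their log2 fold changes differed in sign. Mcm3, also on chromosome 1 (chr1:20802968-20820312), was near 0.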

How the data were processed

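The 8 libraries hold RNA of sorted MSPCs, 4 per genotype. Reads were trimmed by the authors, mapped with HISAT2 on GRCm38 and counted per gene with HTSeq, and the raw counts were deposited without normalization. Of the counts from 1 to 20, 58.6% were odd, which is not explained by the sources used here, and the values were used as counts. Tool versions and the strand setting are not given in the sources used here. Total counts were 31047344 to 38216877 per library. Of 52636 genes, 52403 matched a symbol. Positions and exon lengths come from GENCODE M21 on GRCm38, promoter sequences from RefSeq on GRCm38.p6.

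CPM were scaled by TMM. Genes detected in each library (count above 0; 14598) entered the quasi-likelihood test of edgeR 4.0.16 under R 4.3.3 (p-values adjusted by Benjamini-Hochberg, threshold 0.05), without covariates for genotype and with genotype as a term for the title number range. Log2 CPM used a prior count of 2. Other tests were exact permutation tests. Alternatives were other size factors, filterByExpr, no filter, DESeq2 1.42.0, voom from limma 3.58.1, the title number range as a term, the replicate number as a block, other prior counts and lengths, and each library left out. The MCM genes, gene lists and alternatives were chosen with earlier results of these data known. Named genes are the MCM genes, the highest, lowest and most abundant gene of each list, the 5 genes most like Mcm6, and up to 6 tested genes nearest to Cxcr4 within 500 kb. The groups share replicate numbers, which do not establish pairs.

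On simulated counts with 200 changed genes, the genotype fit recovered 36.5% of log2 changes of 1, with 2 false calls, and 78.5% of log2 changes of 2, with 6 false calls. The single-cell data of the study were not analysed here.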

Additional observations from a re-analysis of the deposited data

Results flagged for a closer look

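In groups of 4 libraries, 1 value stood far from the others in 4 of 18 MCM gene and genotype groups. This was measured by the gap to its neighbor as a share of the group's range, set against Dixon's critical value for 4 samples. For independent, normally distributed values that cut gives about 0.9 of 18. The groups share the same 8 libraries and the share over all genes tested was not computed, so that no excess for the MCM genes is shown. Mcm5 in cKO replicate 3 was at 7.12 CPM against 14.6 to 15.3 CPM in the other cKO libraries (gap share 0.915). Mcm7 in cKO replicate 2 was at 50.3 CPM against 36.8 to 37.8 CPM (0.926). Mcm9 in CTR replicate 3 was at 16.2 CPM against 27.8 to 29.2 CPM (0.892), and Mcm9 in cKO replicate 4 was at 36.2 CPM against 23.8 to 24.6 CPM (0.939). Mcm6 had no such library in either genotype, although CTR replicate 3 was its lowest CTR value. The cause of these values was not tested.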

How the results depend on the processing

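Mcm6 was lower in cKO under all 8 other settings (log2 fold change -1.11 to -1.05) and with each library left out (-1.31 to -0.98). Its direction with a library left out carries no added support, because its genotypes do not overlap. Mcm7 and Mcm8 kept their direction under the same changes, whereas Mcm2, Mcm3, Mcm4, Mcm5 and Mcm9 changed sign with 1 or more libraries left out, and Mcm5 also with limma-voom (0.01). The count of genes called between genotypes, 0, was 1 with filterByExpr or without a filter (G430095P16Rik in both, named after its values were seen), 23 with DESeq2's Wald test and 47 with its likelihood ratio test, and 0 to 0 with a library left out. With the replicate number as a block it was 0, and Mcm6 was at -1.05. Same-numbered CTR and cKO libraries had deviations correlated at 0.0572 to 0.176, and 3 of 4 correlated best with their own number. Each same-numbered pair also shares its title number range, so that these correlations cannot tell pairing from the range. The count for the title number range, 2, was 1 with the other size factors, 0 without the genotype term, 342 with DESeq2, and 0 to 4 with a library left out. The interaction count, 0, was 0 to 3 with a library left out. The 4 neighbor pairs past the threshold in the order of levels were 0 to 3 with a library left out, where the smallest p that 7 libraries allow is 0.0156. Relations to Mcm6 past the threshold were 0 to 1 with a library left out. Signs turned for r of Mcm7 with Mcm6 without centring (-0.045), of Mcm4 without the 2 farthest libraries (-0.14) and of Mcm9 with a library left out (-0.55 to 0.92), and for Mcm5 over Mcm9 with the longest transcript (-0.51) and Mcm6 over Mcm3 with a library left out (-0.10 to 0.20). The causes were not tested. Replication genes called stayed at 0 in every genotype setting. Limits are 4 mice per genotype, unstated meaning of the title numbers and, for Mcm8 and Mcm10, low counts.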
